A study of Sus scrofa with 6 samples.

Results

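Genes of cholesterol synthesis and uptake were examined in single-cell RNA-seq of porcine midbrain-like organoids (pMLOs), taken by gene symbol. The set held 7 of the 30477 genes in the count tables, and all 7 were present: HMGCS1, SQLE, INSIG1, IDI1, FDFT1, MSMO1 and STARD4. The pMLOs came from 1 line of porcine embryonic stem cells of an in vitro fertilized blastocyst, named IVF_1_ pESC_FIW, so no comparison held more than 1 genetic background. Each of days 11, 28 and 45 of differentiation (D11, D28 and D45) had 2 libraries, named A and B. All groups shared the earlier steps: embryoid bodies formed in mTeSR Plus with Y-27632, then N2B27 medium with SB431542, Noggin, SHH-C24II and CHIR99021, then FGF8, and then B27 medium with FGF8, BDNF and ascorbic acid, in which D11 falls. The organoids of D28 and D45 were also embedded in Matrigel, shaken, and given a terminal medium that held GDNF, db-cAMP and DAPT in place of FGF8. Between D11 and the later days the day and the culture therefore cannot be told apart, while D28 and D45 shared the terminal medium. The labels call the cells of every library midbrain dopaminergic neurons, and the cells were therefore also separated here by marker genes.

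Animal cells build cholesterol from acetyl-CoA through the mevalonate and squalene routes, and take it up from lipoproteins. When sterols in the endoplasmic reticulum run low, SCAP carries the transcription factor SREBP-2 to the Golgi, where it is cut, and its active part switches on most genes of both routes. In the brain, which plasma lipoproteins hardly reach, neurons and glia make their own sterol, astrocytes export it on apolipoprotein E particles, and oligodendrocytes use it for myelin. HMGCS1 makes HMG-CoA at the head of the mevalonate route. IDI1 converts the isoprenoid unit into its reactive isomer. FDFT1 joins farnesyl units into squalene, SQLE oxidizes squalene, and MSMO1 removes methyl groups from the sterol ring. INSIG1 holds SCAP back when sterols are plentiful. STARD4 is a soluble protein that moves cholesterol between membranes.

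Promoters of 2 members are shown, because that of HMGCS1 held a sterol regulatory element, the site that SREBP-2 binds, and because STARD4 was the member that passed the test between days in whole pMLOs. The sequences are RefSeq's for Sscrofa11.1, each on the minus strand and written 5′ to 3′ from 250 bases before to 50 bases after the gene's start. HMGCS1 lay at chr16:27957212-27957511 and STARD4 at chr2:116257094-116257393. Capitals mark the element TCACNCCAC, where N is any base, and the CCAAT box, which reads ATTGG on the other strand.
HMGCS1: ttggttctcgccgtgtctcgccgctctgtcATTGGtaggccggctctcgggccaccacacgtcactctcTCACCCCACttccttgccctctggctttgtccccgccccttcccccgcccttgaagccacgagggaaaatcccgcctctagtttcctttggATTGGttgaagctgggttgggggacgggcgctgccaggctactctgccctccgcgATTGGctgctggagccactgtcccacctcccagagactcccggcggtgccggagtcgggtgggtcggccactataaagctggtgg
STARD4: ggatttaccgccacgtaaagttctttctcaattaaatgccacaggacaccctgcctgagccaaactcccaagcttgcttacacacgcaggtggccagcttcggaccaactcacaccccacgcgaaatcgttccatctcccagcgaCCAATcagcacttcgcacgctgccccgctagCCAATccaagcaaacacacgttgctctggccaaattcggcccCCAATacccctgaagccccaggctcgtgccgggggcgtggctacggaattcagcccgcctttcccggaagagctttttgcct
The RefSeq annotation matched 6 of the 7 members by symbol, all but IDI1. Both strands were searched. TCACNCCAC stood in 2 of the 6, HMGCS1 among them at bases -181 to -173 counted from the gene's start, against 0.915% of 19559 protein-coding promoters. CCAAT stood in 5 of the 6 (all but MSMO1), against 35.4% of all promoters. The CACGTG E-box stood in 1, INSIG1, against 7.91%. GGGCGG, the GC box, stood in 5 (all but STARD4), against 50.6%. These are matches of letters and not tested sites.

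Of 104820 barcodes, 102940 cells were kept, with 106805311 to 180034791 unique molecular identifiers (UMIs, 1 per captured transcript) per library and a median of 2300.5 to 10757 UMIs per cell. Any 2 libraries shared 54 to 111 barcodes. Levels are CPM, the UMIs of a gene per 1000000 UMIs in the sum over a library's cells. Cells were placed in classes by at least 2 UMIs of STMN2, AQP4 or SOX10 and at most 1 UMI of each of the other two. STMN2+ cells numbered 1956 in D11 A, 3083 in D11 B, 7621 in D28 A, 7032 in D28 B, 8941 in D45 A and 7518 in D45 B. AQP4+ cells numbered 0, 0, 21, 12, 406 and 569 in the same order, and SOX10+ cells 13, 7, 15, 166, 718 and 813. Sums under 20 cells were left out, so on D28 the AQP4+ class rested on library A alone and the SOX10+ class on library B alone.

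Each class was checked against markers other than the gene that gates it. The summed level of 7 neuron markers was 1958 to 4110 CPM in STMN2+ cells and 168 to 486 CPM in the other 2 classes. The 8 oligodendrocyte lineage markers summed to 2580 to 6707 CPM in SOX10+ cells and 19.6 to 171 CPM in the others. The 6 astrocyte markers found summed to 1530 and 1324 CPM in AQP4+ cells of D45 and to 51.9 to 296 CPM in the others. In the 21 AQP4+ cells of D28 A they summed to 425 CPM with 3 of the 6 at 0, beside 1663 CPM of 4 mitotic and 1184 CPM of 4 fibroblast markers, so those cells are called only by their gate. Fibroblast markers in STMN2+ cells stood at 2.76 and 8.81 CPM on D11, at 522 and 48.8 on D28 and at 282 and 978 on D45.

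The first question was how the members changed with days of differentiation. In whole pMLOs and in STMN2+ cells, STARD4 was the member that passed the test between 2 days: it was higher on D45 than on D28, and the other 6 passed between no 2 days. STARD4 stood at 20.9 and 18.3 CPM on D11 (A and B), at 12.3 and 14.4 on D28 and at 52.5 and 26.6 on D45 in whole pMLOs. In STMN2+ cells it stood at 27.3 and 24.0, then 13.9 and 18.1, then 79.4 and 39.2 CPM. Both D45 libraries lay above both D28 libraries and above both D11 libraries in each of the 2 readings, and D45 A lay far above D45 B. In the STMN2+ cells, markers of other types moved too from D28 to D45: astrocyte markers from 140 and 144 to 277 and 306 CPM, oligodendrocyte lineage markers from 74.4 and 53.2 to 178 and 169, and floor plate markers from 567 and 845 to 173 and 275. Their part in the change of STARD4 was not tested. The log2 difference of D45 from D28 was 1.41 ± 0.29 (SE) in whole pMLOs (adjusted p = 0.0331 from the quasi-likelihood test of edgeR on all 6 libraries, with Benjamini-Hochberg correction across the genes tested) and 1.76 ± 0.31 in STMN2+ cells (edgeR adjusted p = 0.0334). This was 1 of 7 members called, against 9.40% of all genes in whole pMLOs and 3.43% in STMN2+ cells. In whole organoids, fewer cells of a type and less RNA per cell cannot be told apart.

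The call rested on few libraries. Without D45 A the log2 difference of STARD4 was 0.89 in whole pMLOs and 1.18 in STMN2+ cells (edgeR adjusted p = 0.171 and 0.190), and without D45 B it was 1.80 and 2.17 (0.0525 and 0.0626). Without D11 A or D11 B it was 1.44 and 1.78, with edgeR adjusted p from 0.0693 to 0.0766. It was 1.83 in cells with at least 10 STMN2 UMIs (edgeR adjusted p = 0.0338), a gate added after the data were seen because of the fibroblast RNA above. With the letters A and B as a block, the call was lost in whole pMLOs and in STMN2+ cells.

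**Figure D1:**
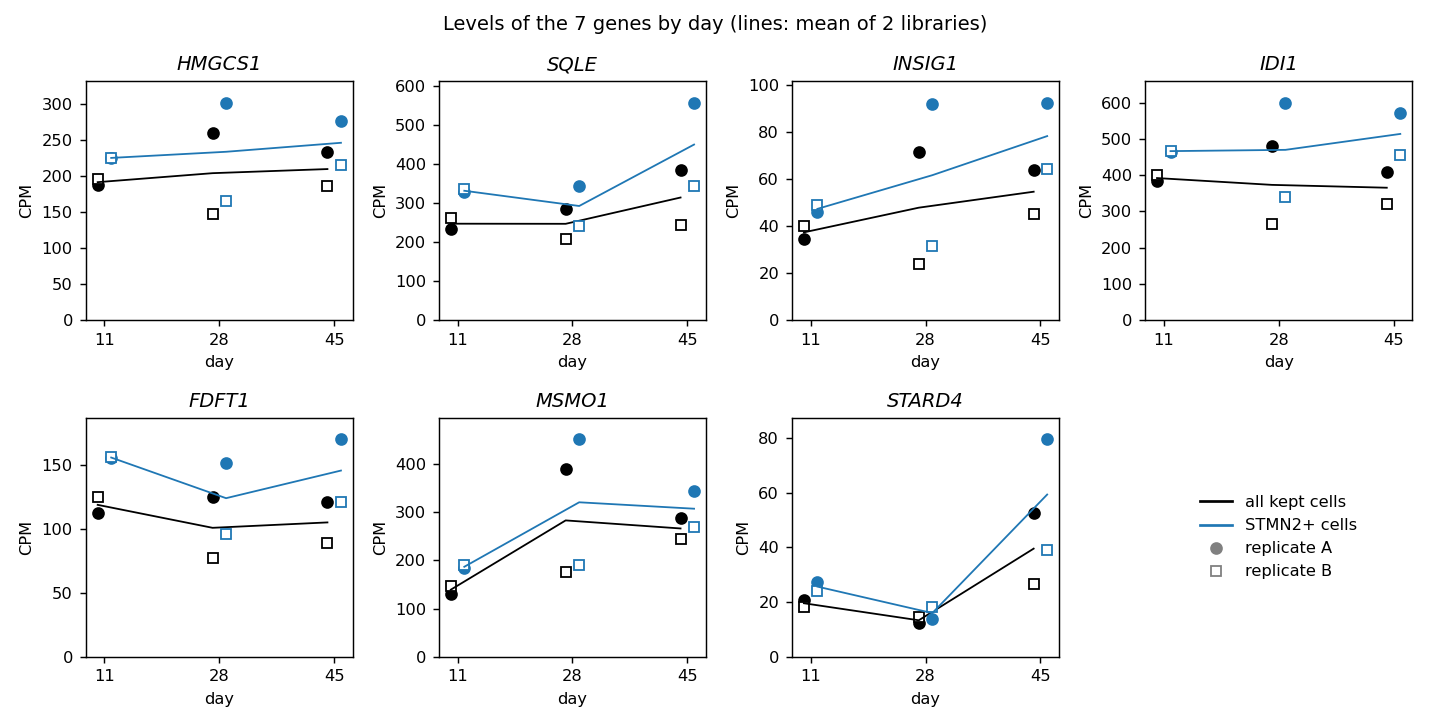
Level of each of the 7 members in CPM on linear axes, with 1 point per library for D11, D28 and D45, in whole pMLOs and in STMN2+ cells. STARD4 is the member whose D45 points both lie above all D28 and D11 points, and D28 A lies above D28 B for the other 6.

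For the other 6 members the 2 libraries of D28 stood far apart. MSMO1, the sterol methyl oxidase, stood at 131 and 147 CPM on D11, at 390 and 176 on D28 and at 288 and 244 on D45 in whole pMLOs. Its D11 levels lay below all 4 later levels, and the log2 difference of D28 from D11 was 0.81 ± 0.41 (edgeR adjusted p = 0.195). INSIG1, the SCAP anchor, stood at 34.6 and 40.1 CPM on D11, at 71.6 and 23.9 on D28 and at 64.0 and 45.2 on D45, so that D28 A was the highest and D28 B the lowest of the 6 libraries. IDI1, the isomerase, stood at 383 and 401, then 481 and 265, then 409 and 321 CPM, again with D28 A highest and D28 B lowest. HMGCS1, at the head of the route, stood at 187 and 196, then 260 and 148, then 232 and 186 CPM, in the same order of extremes. SQLE stood at 233 and 261, 285 and 208, and 383 and 244 CPM. FDFT1, the squalene synthase, stood at 113 and 125, 125 and 77.2, and 122 and 88.9 CPM. For these 2 as well D28 B was the lowest library.

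Of the 7 members, 6 were higher in D28 A than in D28 B, with A over B from 0.857 (STARD4) to 2.99 (INSIG1) in whole pMLOs and from 0.767 to 2.93 in STMN2+ cells. On D45 all 7 were higher in A, by 1.18 to 1.98 times in whole pMLOs and 1.25 to 2.03 times in STMN2+ cells. On D11, 1 of 7 was higher in A and the ratios ran from 0.863 to 1.14. Fibroblast markers summed to 916 CPM in D28 A and 109 CPM in D28 B over all cells, and the part of that difference in the members' levels was not tested.

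The counts of members called between days depended on which D28 library was used. From D11 to D28 in whole pMLOs, 0 of 7 members were called by edgeR with both libraries, 4 were lower without D28 A (HMGCS1, INSIG1, IDI1 and FDFT1) and 2 were higher without D28 B (INSIG1 and MSMO1). Of all genes 31.8% were called without D28 A and 46.1% without D28 B, against 23.1% with both. The log2 difference of INSIG1 was then -1.02 without D28 A and 0.79 without D28 B, past the threshold in both cases. From D28 to D45, 3 were higher without D28 A (INSIG1, MSMO1 and STARD4), while STARD4 was higher and 4 were lower without D28 B (HMGCS1, INSIG1, IDI1 and MSMO1). The share of all genes there was 18.2% and 43.7%, against 9.40% with both. In STMN2+ cells 4 were lower without D28 A and 2 higher without D28 B from D11 to D28, and from D28 to D45 2 were higher without D28 A, and 1 higher and 2 lower without D28 B. The shares of all genes were 20.3% and 33.7% from D11 to D28, and 9.71% and 38.1% from D28 to D45. From D11 to D45, which compares no D28 library, 0 of 7 were called in whole pMLOs and in STMN2+ cells with all libraries in the fit. In whole pMLOs 1 was higher and 2 were lower when either D28 library was left out of the shared spread, against 53.4% and 53.7% of all genes. In STMN2+ cells STARD4 then passed as higher, at 0.91 without D28 A and 0.87 without D28 B (edgeR adjusted p = 0.0180 and 0.0236), against 43.5% of all genes in both, and it passed in 10 of 18 alternatives.

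In the comparisons of D11 with the later days 0 of 7 members were called by edgeR, against 23.1% of all genes from D11 to D28 and 34.6% from D11 to D45 in whole pMLOs, and 12.8% and 25.4% in STMN2+ cells. The members' edgeR adjusted p ran from 0.0824 to 0.847, 0.152 to 0.873, 0.102 to 0.889 and 0.0694 to 0.834 in that order. Their median log2 difference was -0.24 (all genes 0.03), -0.07 (all genes -0.01), -0.14 (all genes 0.05) and 0.11 (all genes 0.02). For D45 against D28 it was -0.13 (all genes -0.03) in whole pMLOs and 0.06 (all genes -0.04) in STMN2+ cells. Scaling by library totals moved the median of all genes up by 0.27, 0.14 and 0.41 in whole pMLOs (D28 against D11, D45 against D28, D45 against D11) and by 0.20, 0.13 and 0.33 in STMN2+ cells. The share of called genes that were higher then went from 54.3% to 77.2%, 47.5% to 59.0% and 49.8% to 74.6% in whole pMLOs, and from 52.0% to 71.2% (D28 against D11) and 46.9% to 70.7% (D45 against D11) in STMN2+ cells.

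The second question was how the members differed among neurons, astrocyte-like cells and the oligodendrocyte lineage on D28 and D45, with library as a block. AQP4+ and SOX10+ cells were each compared with STMN2+ cells of the same library. With each other they shared a library on D45 only. The AQP4+ cells of D28 A, as given above, were called only by their gate. All 7 members were lower in SOX10+ than in STMN2+ cells. In AQP4+ cells 5 of the 7 were lower than in STMN2+ cells, and HMGCS1 and MSMO1 were not among them. HMGCS1 stood in STMN2+ cells at 301 and 165 CPM on D28 (A and B) and 277 and 215 on D45. AQP4+ cells held it at 335 CPM in D28 A, 325 in D45 A and 269 in D45 B, and SOX10+ cells at 87.1 in D28 B, 63.4 in D45 A and 51.8 in D45 B. Within each library AQP4+ cells had the highest HMGCS1 where they were measured, and SOX10+ cells lay below the other classes without overlap. MSMO1 stood at 450, 190, 344 and 270 CPM in STMN2+ cells (D28 A, D28 B, D45 A and D45 B), at 304 (D28 A), 351 and 320 in AQP4+ cells, and at 117 (D28 B), 93.6 and 87.2 in SOX10+ cells. AQP4+ and STMN2+ levels of MSMO1 overlapped and SOX10+ levels lay below both.

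Of the 3 classes, STMN2+ cells held the highest levels of INSIG1, SQLE, IDI1, FDFT1 and STARD4. These genes did not pass the test between AQP4+ and SOX10+ cells with D28 and D45 in the fit. SQLE, IDI1 and FDFT1 did pass as lower in SOX10+ cells in 2, 1 and 4 of 17 alternatives. The D45 libraries alone, chosen after the data were seen, were among those alternatives for each of these genes. SQLE stood on D45 at 556 and 342 CPM in STMN2+ cells, 155 and 163 in AQP4+ cells, and 117 and 113 in SOX10+ cells. INSIG1 stood on D45 at 92.4 and 64.1 CPM in STMN2+ cells, 20.7 and 25.1 in AQP4+ cells, and 25.1 and 24.4 in SOX10+ cells. IDI1 stood on D45 at 571 and 456 CPM in STMN2+ cells, 192 and 200 in AQP4+ cells, and 155 and 155 in SOX10+ cells. For these 3 genes both D45 libraries of STMN2+ cells lay above both D45 libraries of AQP4+ and of SOX10+ cells. Only INSIG1 overlapped between AQP4+ and SOX10+ cells. FDFT1 stood on D45 at 170 and 122 CPM in STMN2+ cells, 68.2 and 60.04 in AQP4+ cells, and 37.8 and 38.7 in SOX10+ cells. STARD4 stood on D45 at 79.4 and 39.2 CPM in STMN2+ cells, 8.39 and 10.8 in AQP4+ cells, and 5.99 and 6.51 in SOX10+ cells. The order of the 3 classes was the same for these 2 in both libraries. STMN2+ and SOX10+ cells lay closer in D28 B, where the 7 members summed to 1082 and 774 CPM. In D28 A, left out with 15 SOX10+ cells, they summed to 1952 and 507 CPM. The level in STMN2+ over that in SOX10+ cells ran from 1.11 (IDI1) to 1.90 (HMGCS1) over the 7 members in D28 B, against 2.63 (INSIG1, D45 B) to 13.3 (STARD4, D45 A) on D45. In the AQP4+ cells of D28 A, STARD4 rested on 3 UMIs (7.29 CPM, 95% Poisson interval 1.504 to 21.3, which covers counting error only).

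**Figure D2:**
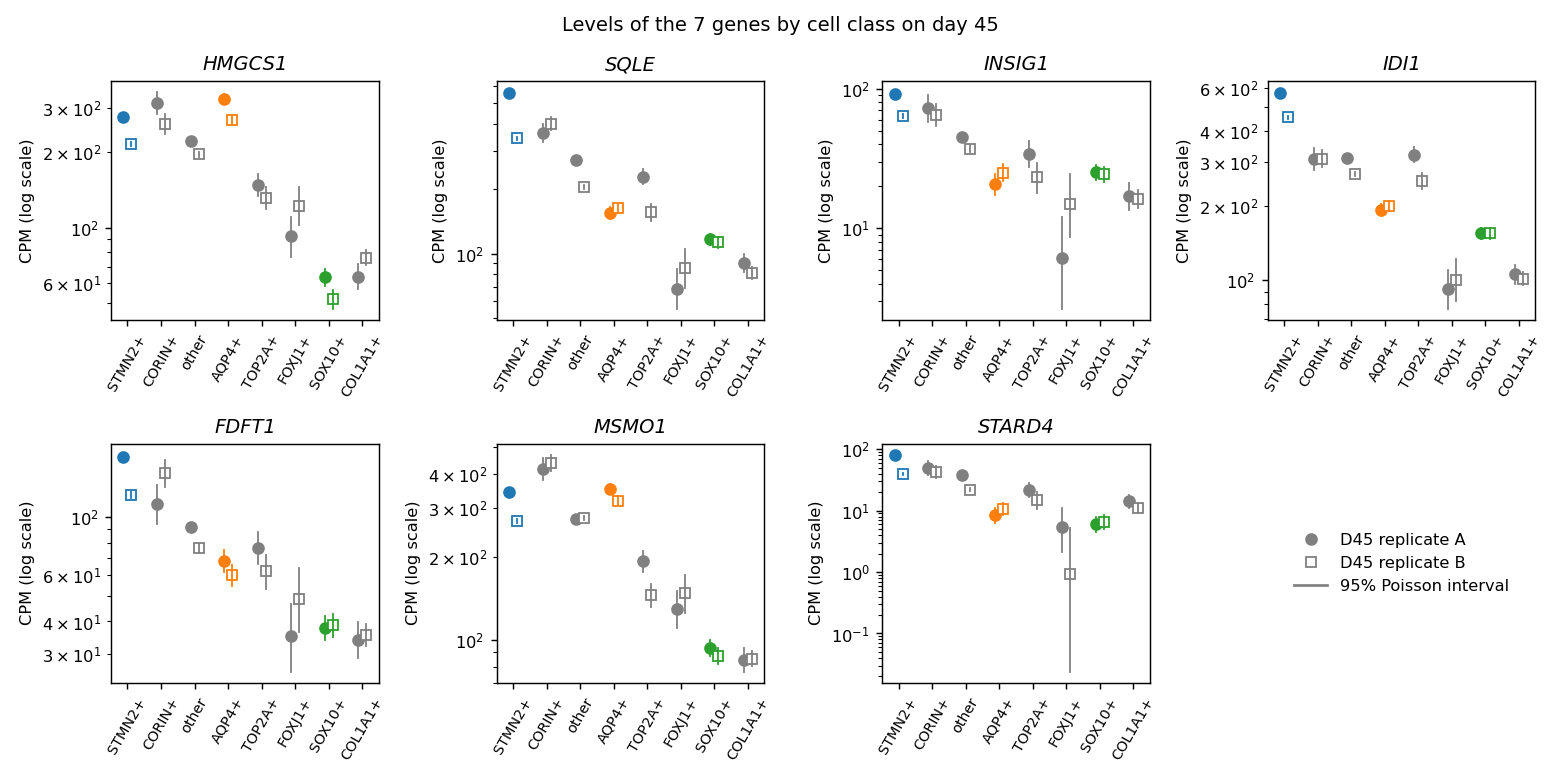
Level of the 7 members in CPM on a log axis by cell class on D45, with 1 point per library and bars of its Poisson interval. The classes are STMN2+, AQP4+, SOX10+, CORIN+, COL1A1+, TOP2A+ and FOXJ1+ cells, each named by its marker gene, and the remaining cells. Among STMN2+, AQP4+ and SOX10+ points, SOX10+ points are lowest for HMGCS1 and MSMO1. Both STMN2+ points lie above all AQP4+ and SOX10+ points for SQLE, INSIG1, IDI1, FDFT1 and STARD4.

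By edgeR's quasi-likelihood test with library as a block, SOX10+ cells against STMN2+ cells had log2 differences of -2.25 ± 0.54 for STARD4 (adjusted p = 0.00825), -1.56 ± 0.22 for HMGCS1 (0.000617), -1.34 ± 0.24 for FDFT1 (0.00213), -1.32 ± 0.25 for MSMO1 (0.00292), -1.25 ± 0.29 for SQLE (0.00707), -1.16 ± 0.23 for INSIG1 (0.00365) and -0.99 ± 0.28 for IDI1 (0.0182). These 7 of 7 lower members stood against 28.4% of all genes called lower and 49.8% called in either direction, and the members' median was -1.32 against -0.11 over all genes. AQP4+ cells against STMN2+ cells had edgeR log2 differences of -2.00 ± 0.56 for STARD4 (adjusted p = 0.0202), -1.34 ± 0.24 for INSIG1 (0.00295), -0.92 ± 0.28 for SQLE (0.0295), -0.87 ± 0.27 for IDI1 (0.0320) and -0.84 ± 0.24 for FDFT1 (0.0206). These 5 lower members stood against 22.4% of genes called lower and 43.5% called in either direction, and the median of the 7 was -0.87 against -0.05.

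In AQP4+ against STMN2+ cells HMGCS1 differed by 0.54 ± 0.20 on the log2 scale (95% interval 0.13 to 0.94, edgeR adjusted p = 0.0629). MSMO1 differed by 0.22 ± 0.24 (95% interval -0.24 to 0.69, edgeR adjusted p = 0.471). The 95% intervals of log2 differences use a normal approximation. On D28 the test of SOX10+ against AQP4+ cells ran only through the STMN2+ cells of each library. It passed for 2 members, HMGCS1 (-2.10 ± 0.25, edgeR adjusted p = 0.000309) and MSMO1 (-1.54 ± 0.28, 0.00265), both lower, against 21.9% of genes called lower and 40.4% in either direction. For the other 5 the 95% interval held 0, as in -0.35 to 0.71 for INSIG1 and -1.48 to 1.00 for STARD4. The median of the 7 was -0.33 against 0.02 over all genes.

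Gated AQP4+ and SOX10+ cells were deeper than STMN2+ cells, with medians of 11233 to 17804 UMIs per cell against 5138 to 8157. With each cell thinned to 2000 UMIs before gating, all 7 members passed as lower in SOX10+ than in STMN2+ cells (edgeR) and 5 in AQP4+ than in STMN2+ cells. Thinning left 2 and 1 AQP4+ cells on D28, so the AQP4+ values then came from D45 alone. HMGCS1 (0.85) and MSMO1 (0.48) then passed as higher in AQP4+ cells (edgeR adjusted p = 0.000118 and 0.0413). In the D45 libraries alone, a choice made after the data were seen, HMGCS1 was likewise higher in AQP4+ cells by 0.47 (edgeR adjusted p = 0.00258) and MSMO1 by 0.33 (0.0226). Without D45 A or without D45 B, 3 members passed in SOX10+ against STMN2+ cells, 1 (INSIG1) in AQP4+ against STMN2+ cells and 1 (HMGCS1, at -1.92 and -1.89) in SOX10+ against AQP4+ cells. The counts with thinned cells or a library left out stand without the share of all genes called in the same fits. Their shifts are therefore not read as a result about the members. Scaling by library totals moved the median of all genes by -0.18 in AQP4+ and -0.19 in SOX10+ against STMN2+ cells, and the share of called genes that were higher from 48.5% to 34.5% and from 43.0% to 30.1%. HMGCS1 was then 0.36 higher in AQP4+ cells on the log2 scale (edgeR adjusted p = 0.179).

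**Figure D3:**
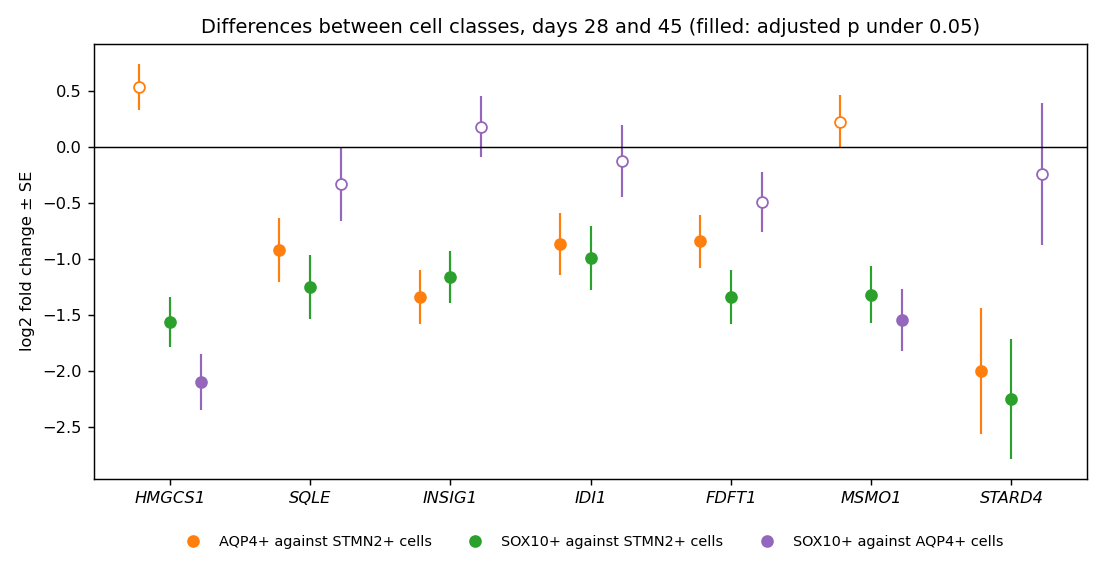
Log2 difference of each of the 7 members between cell classes on D28 and D45, with bars of 1 SE, from the fit with library as a block. All 7 lie below 0 for SOX10+ against STMN2+ cells, and HMGCS1 and MSMO1 lie furthest below 0 for SOX10+ against AQP4+ cells.

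Outside the 3 classes, cells with at least 2 UMIs of CORIN, a floor plate gene, and cells with as many of COL1A1, a fibroblast gene, moved in unlike directions from D28 to D45. All 7 members were higher in both D45 libraries than in both D28 libraries of CORIN+ cells, against 25.2% of all genes with a mean of at least 10 CPM. STARD4 stood there at 8.092 and 7.998 CPM on D28 and 49.9 and 42.4 on D45. INSIG1 stood at 29.7 and 12.3, then 72.7 and 65.1 CPM, and IDI1 at 204 and 129, then 309 and 310 CPM. On D45 the 7 members summed to 1636 and 1663 CPM (A and B) in CORIN+ cells, beside 2089 and 1508 in STMN2+ cells. The CORIN+ cells were few on D45, at 72 and 133, after 930 and 1432 on D28, and markers of other cell types moved with the members. Their 7 astrocyte markers summed to 50.8 and 59.96 CPM on D28 and 584 and 225 on D45, and their 8 neuron markers to 228 and 279, then 463 and 344 CPM. Floor plate markers summed to 1528 and 2760, then 1651 and 1113 CPM. The part of these shifts in the members' levels was not tested. In COL1A1+ cells 5 members (HMGCS1, SQLE, IDI1, FDFT1 and MSMO1) were lower in both D45 libraries, against 27.1% of genes. IDI1 stood there at 378 and 180 CPM on D28 and 106 and 102 on D45, and SQLE at 196 and 124, then 90.5 and 81.5 CPM. INSIG1 and STARD4 overlapped between the days. Oligodendrocyte lineage markers in the COL1A1+ cells summed to 164 and 160 CPM on D28 and 515 and 565 on D45, and their part was not tested. These levels describe 2 libraries a day and were not tested.

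Within AQP4+ and SOX10+ cells the D28 level came from 1 library each, and the fit assumed that this library varies like the pair of D45. With 1 library on D28, the fit could not estimate the spread between D28 samples of these classes, so the tests below describe these libraries more than the days. In 15 SOX10+ cells of D28 A, left out, the 7 members summed to 507 CPM, against 774 in D28 B and 498 and 476 on D45. In 12 AQP4+ cells of D28 B, left out, they summed to 1226 CPM, against 1332 in D28 A and 1120 and 1047 on D45. IDI1 stood lower in the 2 D45 libraries than in that 1 D28 library of each class. In the AQP4+ gate, with 21 cells in D28 A, it stood at 352 CPM (D28 A, 95% Poisson interval 297 to 415), then 192 and 200, a log2 difference of -1.03 ± 0.18 (edgeR adjusted p = 0.0133), 1 of 7 members against 19.0% of all genes. In SOX10+ cells IDI1 stood at 307 CPM (D28 B), then 155 and 155 (-0.93 ± 0.13, edgeR adjusted p = 0.00922), and FDFT1 at 62.1, then 37.8 and 38.7 (-0.64 ± 0.15, 0.0404), 2 of 7 against 8.66%. The SOX10+ calls were lost with cells thinned, where IDI1 was at -0.24 (edgeR adjusted p = 0.878), with doublets removed (-0.94, 0.0587) and with a gate of 1 SOX10 UMI (-1.06, 0.149). Of 13 alternatives 5 lost the call of IDI1 and 7 that of FDFT1. Runs without D11 A, D11 B or D28 A are among the 13. They repeat the main fit, which held no SOX10+ sum from those libraries. The members' median was -0.36 in AQP4+ cells (all genes 0.24) and -0.54 in SOX10+ cells (all genes 0.03). Scaling by library totals moved the median of all genes by 0.18 in AQP4+ cells and the share of called genes that were higher from 54.2% to 67.5%. Mitotic markers stood at 1663 CPM on D28 and 172 and 130 on D45 in AQP4+ cells, and at 725, then 328 and 351 CPM in SOX10+ cells. MAG was found in 36 of 166 SOX10+ cells on D28 B against 306 of 718 and 314 of 813 on D45. The part of these shifts in the members' change was not tested.

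The difference in the day's change between classes was then tested itself. From D28 to D45, 4 of 7 members passed as lower in SOX10+ cells relative to STMN2+ cells of the same library, against 2.17% of all genes called, with 1 library of 166 SOX10+ cells on D28: IDI1 (-1.51 ± 0.21, edgeR adjusted p = 0.00688), FDFT1 (-1.21 ± 0.26, 0.0395), HMGCS1 (-1.09 ± 0.19, 0.0174) and MSMO1 (-0.98 ± 0.20, 0.0309). The level in STMN2+ over that in SOX10+ cells was 1.11 for IDI1 on D28 B and 3.69 and 2.95 on D45, and 1.90 for HMGCS1 on D28 B and 4.36 and 4.14 on D45. SQLE (-1.34, edgeR adjusted p = 0.0508), STARD4 (-2.72, 0.0600) and INSIG1 (-0.93, 0.304) had the same sign without passing, although SQLE passed in 5 and STARD4 in 2 of 13 alternatives and INSIG1 changed sign in 2, and the median of the 7 was -1.21 against 0.09 over all genes. D28 B, the D28 library that held the SOX10+ class, was also the lower D28 library for 6 members in STMN2+ cells. The 7 members summed to 1082 CPM in STMN2+ and 774 in SOX10+ cells of D28 B. In D28 A, left out with 15 SOX10+ cells, they summed to 1952 and 507 CPM. On D45 they summed to 2089 and 498 CPM in A, and to 1508 and 476 in B. The gap in D28 A was thus nearer to those of D45 than to that of D28 B. Without the library block 0 of the 4 passed by edgeR, with IDI1 at -0.87 (adjusted p = 0.619), and in thinned cells 0 passed, with IDI1 at -0.77 (0.680). In AQP4+ relative to STMN2+ cells MSMO1 passed, at 0.82 ± 0.21 (edgeR adjusted p = 0.0455), 1 of 7 against 5.56%, with a median of -0.50 over the members and 0.46 over all genes. Scaling by library totals moved that all-gene median by -0.11, and the MSMO1 call was then lost (0.70, edgeR adjusted p = 0.0777), as it was with DESeq2 (0.73, adjusted p = 0.138).

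Cells of the oligodendrocyte lineage were then split by MAG, a myelin gene, on D45. SOX10+ cells with at least 1 MAG UMI numbered 306 (A) and 314 (B), and those without numbered 412 and 499. INSIG1, HMGCS1, MSMO1 and IDI1 were higher in MAG+ cells. INSIG1 stood at 20.4 and 20.1 CPM in MAG- cells and 30.3 and 31.1 in MAG+ cells, without overlap (0.72 ± 0.15 on the log2 scale, edgeR adjusted p = 0.00318). HMGCS1 stood at 56.5 and 46.7, then 70.9 and 60.03 CPM, without overlap (0.47 ± 0.10, edgeR adjusted p = 0.00392). MSMO1 differed by 0.33 ± 0.09 (edgeR adjusted p = 0.0160) and IDI1 by 0.24 ± 0.08 (0.0457, kept in 5 of 12 alternatives), with the MAG+ level higher in both libraries for each. STARD4 stood at 7.35 and 8.58 CPM in MAG- cells and 4.49 and 3.24 in MAG+ cells. The MAG+ levels rested on few STARD4 UMIs, in sums of 4455734 (A) and 3698320 (B) UMIs. The difference of STARD4 did not pass (-0.90 ± 0.34, edgeR adjusted p = 0.0532), though it passed as lower in 4 of 11 alternatives. SQLE (-0.07) and FDFT1 (-0.19) did not pass either, with 95% intervals of -0.23 to 0.09 and -0.43 to 0.04. The 4 of 7 members called, all higher, stood against 22.5% of all genes called higher. In either direction 47.5% of all genes were called, a share close to theirs. The members' median was 0.24 against -0.01.

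The MAG calls depended on the settings. None of the 4 passed with DESeq2 (adjusted p from 0.179 to 0.477). With cells thinned INSIG1 had too few counts to be tested, and HMGCS1 (0.01), MSMO1 and IDI1 did not pass. With a gate of 1 SOX10 UMI INSIG1 was at 0.48 (edgeR adjusted p = 0.0679) and HMGCS1 at -0.01. Scaling by library totals moved the median of all genes by -0.12 and the share of called genes that were higher from 47.2% to 36.0%, and INSIG1 and HMGCS1 passed under it while MSMO1 and IDI1 did not. Mitotic markers stood at 584 and 566 CPM in MAG- cells and 46.5 and 13.5 in MAG+ cells, and astrocyte markers at 245 and 229, then 55.2 and 71.4 CPM. The part of these shifts was not tested.

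**Figure D4:**
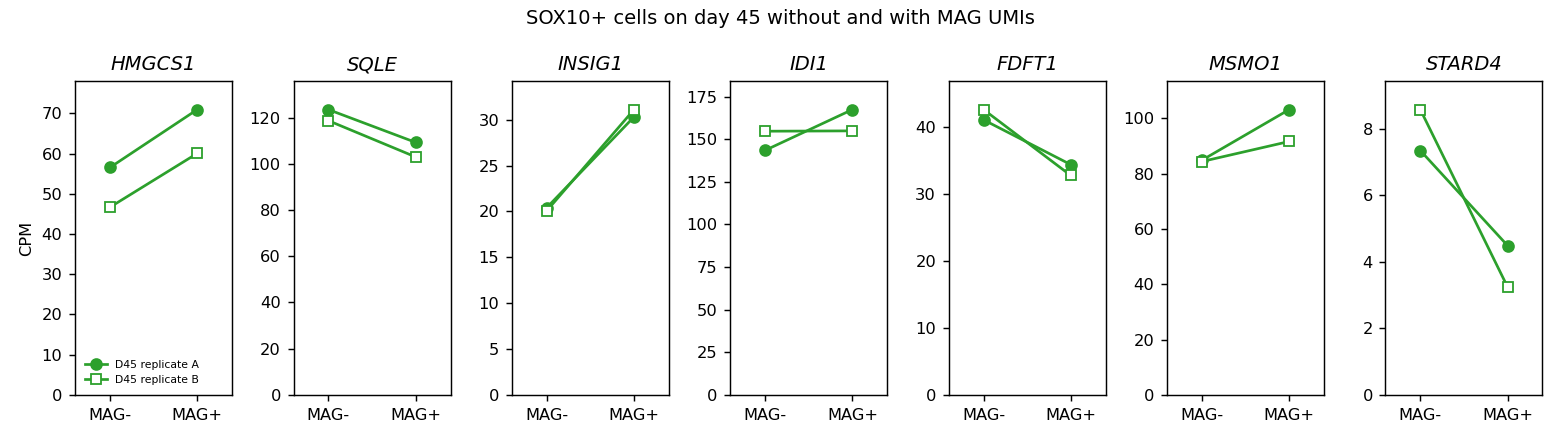
Level of the 7 members in CPM on linear axes in MAG- and MAG+ SOX10+ cells of D45, with a line joining the 2 classes of each library. INSIG1 and HMGCS1 are higher in MAG+ cells in both libraries and STARD4 is lower in both.

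The synthesis route was counted whole, as 20 enzymes of which 19 were tested, the 5 member enzymes among them. In SOX10+ against STMN2+ cells 2 were higher and 10 lower, where 49.8% of all genes were called and 28.4% were lower, with a median of -0.54 against -0.11 over all genes. Outside the members the lower ones were led by SC5D, a desaturase late in the route (-2.55 ± 0.26, edgeR adjusted p = 0.000131). TM7SF2, a sterol ring reductase, was among the higher ones (1.14 ± 0.25, edgeR adjusted p = 0.00621). In AQP4+ against STMN2+ cells 1 was higher and 6 lower of 19, no larger a share than the 43.5% of all genes called, with a median of -0.17 against -0.05. Within the MAG split 8 enzymes of 18 tested were higher in MAG+ cells and 1, EBP, was lower (-0.68 ± 0.14, edgeR adjusted p = 0.00315). That is a share close to the 47.5% of all genes called there (22.5% of all genes were called higher), and the median was 0.37 against -0.01.

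Across days the synthesis list had 0 enzymes called higher by edgeR in each of the 6 tests in whole pMLOs and STMN2+ cells, and 1 to 6 called lower. Over those tests 3.43% to 34.6% of all genes were called in either direction, and 44.8% to 54.3% of the called genes were higher. From D11 to D45 in whole pMLOs 5 were lower, where 34.6% of all genes were called, led by FDPS, the farnesyl diphosphate synthase (-2.99 ± 0.67, edgeR adjusted p = 0.0143), and ACAT2, which makes acetoacetyl-CoA for HMGCS1 (-1.56 ± 0.18, 0.00129). None of the 7 members was among the lower ones in those 6 tests. In SOX10+ cells 8 of the 19 enzymes were lower on D45 than on D28 B, against 8.66% of all genes called, IDI1 and FDFT1 among them, with ACAT2 (-1.03 ± 0.15, edgeR adjusted p = 0.00897) and MVK, the mevalonate kinase (-1.01 ± 0.24, 0.0435). With thinned cells edgeR called 0 of 7761 genes in that contrast, and 725 had an unadjusted p under 0.05.

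Of the sensing genes 6 of 7 were tested, INSIG1 included. SREBF2, which encodes SREBP-2, did not pass between SOX10+ and STMN2+ cells (-0.22, 95% interval -0.49 to 0.04, edgeR adjusted p = 0.188), where INSIG1 (-1.16) and INSIG2 (-0.80 ± 0.17, 0.00457) were lower. SREBF2 stood in the MAG split at 119 and 102 CPM in MAG- cells and 143 and 128 in MAG+ cells, higher within each library (0.42 ± 0.08, edgeR adjusted p = 0.00218), but at -0.45 with thinned cells (0.355). SREBF1, the relative that serves mainly fatty acid genes, was lower on D45 than on D28 in whole pMLOs (-0.89 ± 0.16, edgeR adjusted p = 0.0242).

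Of the uptake and transfer genes 8 of 10 were tested, STARD4 included. NPC1, which releases cholesterol from lysosomes, was higher in SOX10+ than in STMN2+ cells (1.18 ± 0.15, edgeR adjusted p = 0.000373) and higher in MAG+ than in MAG- cells (2.30 ± 0.10, 2.13e-07). The difference of STARD4 was negative in both contrasts, at -2.25 and -0.90, and only the first passed.

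The pattern of the members over the 42 sums of library and cell class with at least 20 cells was compared with that of 10108 other genes. The sums share libraries and depth, so the correlations are descriptions. Among the members, Pearson's r of log2(CPM + 1) ran from 0.171 (MSMO1 with STARD4) to 0.904 (SQLE with FDFT1). STARD4 had r from 0.418 to 0.689 with the remaining members, and MSMO1 had its highest r with HMGCS1, at 0.788. Among the 10 genes most like the mean of the members were CYP51A1 (r = 0.894), SC5D (0.857), MVK (0.803), MEST (0.745), PDK1 (0.690), MVD (0.672), HK1 (0.668), XPO1 (0.656) and ZC2HC1A (0.646). CYP51A1, SC5D, MVK and MVD were in the synthesis list. HK1, which phosphorylates glucose, and PDK1, which inhibits pyruvate dehydrogenase, were in none of the lists.

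**Figure D5:**
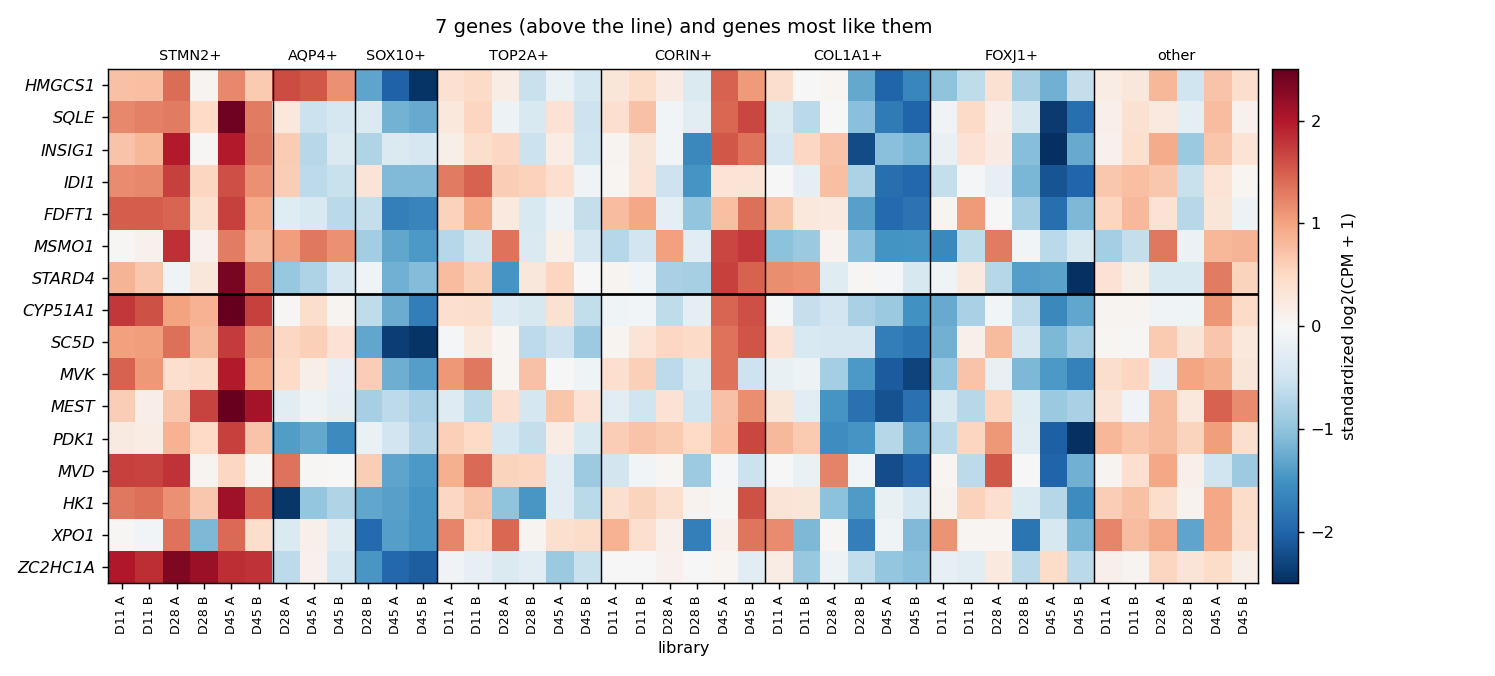
Standardized log2(CPM + 1) of the 7 members and of genes most like their mean over the 42 sums of library and cell class, each gene scaled to its own mean and SD over the sums. STMN2+ sums are mostly above the mean and SOX10+ sums of D45 below it, AQP4+ sums are above it for HMGCS1 and MSMO1, and CORIN+ sums of D45 are above it for all 7 members.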

How the data were processed

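Single-cell RNA-seq of pMLOs was made with 10x Genomics 3′ chemistry, 2 libraries for each of 3 days, described by the study as biological duplicates. The deposited values are UMI counts per gene and cell, made by the authors with Cell Ranger 8.0.1 on Sscrofa11.1, and Seurat 4.3.0 is named in the submitters' processing notes. Genes were matched by symbol. The number of columns of other samples was 0. Nothing in the labels says that libraries of a day came from separate cultures, so p-values of the day tests measure the spread between these libraries, which may be technical. In the fits with library as a block, p-values measure how far the difference between classes varied from library to library. For the MAG split that rests on 2 libraries.

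Cells with 200 to 7000 detected genes and at most 10% mitochondrial UMIs were kept. Counts were summed per library and class (at least 20 cells), since cells are not replicates. Sums were tested with edgeR 4.0.16 in R 4.3.3 (quasi-likelihood test, TMM scaling, filterByExpr, Benjamini-Hochberg adjustment over all genes tested, threshold 0.05), with day as the term for D11, D28 and D45 and with library as a block for classes, class by day and the MAG split. The study itself compared cells by a Wilcoxon test. Alternatives were DESeq2 1.42.0, its size factors, library totals, no filter on low counts or on cells, removal of the cells ranked highest by Scrublet at 0.4% per 1000 cells of a library (otherwise doublets were kept), cells thinned to 2000 UMIs, gates of 1 or 3 UMIs, no TOP2A cells, at least 2 MAG UMIs, the replicate block, each library left out, and 2 added after the data were seen (at least 10 STMN2 UMIs, and D45 alone). For the fits with library as a block, "no replicate block" below means that the library block was left out. The test was checked on simulated data, with the changed genes found and the false calls given below.

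The members, the gene lists and the tests were chosen with earlier results of these data known. Named beyond the 7 members were SREBF2, the 2 largest rises and 2 largest falls past the threshold in each list and comparison, given by example, and the 10 genes most like the members' mean, among genes with a mean of at least 10 CPM. Of 53 listed pathway genes 50 were found. Motifs were searched in RefSeq promoters of Sscrofa11.1. Some of the named genes and 1 promoter are not reported here.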

Additional observations from a re-analysis of the deposited data

Results flagged for a closer look

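For 5 values the change from D28 to D45 passed as different between cell classes in a direct test of the difference in edgeR's quasi-likelihood fit. In SOX10+ relative to STMN2+ cells these were IDI1 at -1.51, FDFT1 at -1.21, HMGCS1 at -1.09 and MSMO1 at -0.98 on the log2 scale, and in AQP4+ relative to STMN2+ cells MSMO1 at 0.82. Each of the 5 rests on 1 D28 library, B for SOX10+ and A for AQP4+ cells, and on 166 and 21 cells there. The fit could thus not estimate the spread between D28 samples. In 15 SOX10+ cells of D28 A the 7 members summed to 507 CPM, against 774 in D28 B and 498 and 476 on D45. In 12 AQP4+ cells of D28 B they summed to 1226 CPM, beside 1082 in its STMN2+ cells. In D28 A those sums were 1332 and 1952 CPM. Of the 4 SOX10+ values 0 passed with thinned cells or with no library block, and MSMO1 in AQP4+ cells lost its call in 7 of 10 alternatives. No sample was tested as standing apart within a day, since each day had 2 libraries.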

How the results depend on the processing

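The number of the 7 members past the threshold was recomputed under each alternative, by edgeR unless DESeq2 is named, and the cause of a shift was not tested unless given. The share of all genes called is not given beside each count. A shift is therefore not read as a result about the members. In whole pMLOs 1 was called from D11 to D28 with DESeq2 in place of 0, and from D11 to D45 1 with library totals and 1 with thinned cells in place of 0. In STMN2+ cells from D11 to D45, 1 was called in place of 0 with DESeq2, library totals, no filter on low counts, thinned cells, the looser gate, the stricter gate or at least 10 STMN2 UMIs. In AQP4+ cells from D28 to D45, 2 were called with no filter on low counts and 3 with the looser gate in place of 1. In SOX10+ cells from D28 to D45, 1 was called with DESeq2, 4 with library totals, 1 with no filter on cells, and 0 with no filter on low counts, doublets removed, thinned cells (6 members tested, STARD4 not), the looser gate or no TOP2A cells, in place of 2. For AQP4+ against STMN2+ cells 3 were called with the looser gate, 2 with no replicate block, and 7 with thinned cells or the D45 libraries alone in place of 5. For SOX10+ against AQP4+ cells 4 were called with thinned cells and 5 in the D45 libraries alone in place of 2. The 7 lower members in SOX10+ against STMN2+ cells stood at 7 in every alternative but those without D45 A or D45 B. For the day's change in AQP4+ relative to STMN2+ cells 0 were called with DESeq2, DESeq2 size factors in edgeR, library totals, no filter on cells, the looser gate, at least 10 STMN2 UMIs or no replicate block, and 2 with no filter on low counts, in place of 1. For SOX10+ relative to STMN2+ cells 0 were called with thinned cells or no replicate block, and 2 with the looser gate, the stricter gate, no TOP2A cells or at least 10 STMN2 UMIs, in place of 4, which rose to 5 or 6 with DESeq2, its size factors in edgeR, library totals, no filter on low counts or no filter on cells. In the MAG split 0 were called with DESeq2 and 1 with the looser gate in place of 4, and 0 with thinned cells, where 4 of the 7 could be tested and INSIG1 could not.

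Leaving out 1 library at a time gave 0 to 4, 0 to 5 and 0 to 3 called members in whole pMLOs (D28 against D11, D45 against D28, D45 against D11), 0 to 4, 0 to 3 and 0 to 1 in STMN2+ cells, 1 to 6 in AQP4+ and 3 to 7 in SOX10+ against STMN2+ cells, and 1 to 3 in SOX10+ against AQP4+ cells. A lone library of a day was assumed to vary like the others. The day's change within AQP4+ or SOX10+ cells, its difference from STMN2+ cells and the MAG split could not be fitted without any of the libraries they rest on.

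The replicate letters did not pair the libraries: deviations of same-lettered libraries from their day's mean had r of -0.32 (D11 with D28), 0.05 (D11 with D45) and -0.20 (D28 with D45) across 22192 genes. With a replicate block the calls from D28 to D45 went from 1 to 0 in whole pMLOs (STARD4 at 1.36, edgeR adjusted p = 0.0601) and in STMN2+ cells (1.69, 0.0598), and the genes called from 2086 to 628 and from 697 to 134.

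Over all member values, 78 of 1431 changed sign, 71 of them past the threshold under neither setting. The 1431 include runs without a library that a fit did not hold, which repeat the main fit. Of the genes named, IDI1 in SOX10+ against AQP4+ cells ranged from -0.40 to 0.07 and STARD4 from -0.68 to 0.30 with 1 library left out, and INSIG1 there was -0.05 with the looser gate and -0.27 with no replicate block. In the MAG split thinned cells gave IDI1 -0.19 and SREBF2 -0.45, and the looser gate gave HMGCS1 -0.01 and MSMO1 -0.16. The day's change of APOE in AQP4+ relative to STMN2+ cells was -1.15, and 0.07 with the looser gate.

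The number of genes called moved further. It was 4353 with DESeq2 in place of 2086 (whole pMLOs, D45 against D28) and 2649 in place of 697 (STMN2+ cells), and 0 in both without D45 A, against 10003 and 8024 without D28 B. In SOX10+ cells from D28 to D45 it was 1251, but 53 with doublets removed, and 0 with no filter on low counts, thinned cells or no TOP2A cells. For SOX10+ relative to STMN2+ cells it was 373, 1065 with no filter on low counts and 0 with no replicate block, and for AQP4+ relative to STMN2+ cells 956, 1566 and 192. Thinning took the class counts from 7028 to 4508 (AQP4+ against STMN2+), from 8053 to 4519 (SOX10+ against STMN2+) and from 6528 to 3065 (SOX10+ against AQP4+), and the MAG split from 6092 to 981. In simulated counts of 22192 genes, 12% of 100 changed 2-fold and 66% of 100 changed 4-fold were found for whole pMLOs (D45 against D28). For SOX10+ against STMN2+ cells 36% and 90% were found (16174 genes), and for the MAG split 71% and 94% (12814 genes). Unchanged genes called there numbered 14, 11 and 23 in that order. D45 against D28 in STMN2+ cells gave 15% and 72%, with 17 such false calls. They numbered 7 in AQP4+ and 0 in SOX10+ cells for that contrast, and 7 for the day's change in SOX10+ relative to STMN2+ cells. Except where they were 0, false calls made up a larger share of the calls than the adjusted p threshold stands for. Adjusted p near the threshold, as for STARD4, may thus be too low.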

Other observations

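Genes that move sterol out of cells, which are not members, were counted as well. From D11 to D45 in whole pMLOs 5 of 8 tested genes of efflux, esterification and liver X receptor response were higher and 1 lower, where 34.6% of all genes were called. They were led by APOE, the apolipoprotein that carries brain cholesterol (6.46 ± 0.79, edgeR adjusted p = 0.00144), and CYP46A1, the enzyme that turns cholesterol into an exported oxysterol (1.88 ± 0.24, 0.00180), with SOAT1, which esterifies cholesterol, lower (-0.99 ± 0.18, 0.00677). Over all cells 7 astrocyte markers summed to 57.9 and 51.4 CPM on D11 and 504 and 535 on D45, and AQP4+ cells went from 0 in both libraries to 406 and 569, and their part was not tested. CYP46A1 had a mean of 30.3 CPM in STMN2+ and 66.7 CPM in AQP4+ cells of D45. In AQP4+ against STMN2+ cells 3 were higher and 2 lower, where 43.5% of all genes were called, with APOE at 3.50 ± 0.25 (edgeR adjusted p = 5.50e-05) and ABCA1, which loads sterol onto apolipoproteins, at 1.66 ± 0.27 (0.00187). APOE was lower in SOX10+ than in AQP4+ cells (-4.03 ± 0.30, edgeR adjusted p = 3.64e-05) and lower in MAG+ than in MAG- SOX10+ cells (-1.53 ± 0.18, 9.29e-05).

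Fatty acid synthesis genes, which answer mainly to SREBP-1, numbered 7 and all were tested. From D11 to D28 in whole pMLOs 0 were higher and 2 of the 7 lower by edgeR, near the 23.1% of all genes called: ACLY, which makes cytosolic acetyl-CoA (-1.18 ± 0.15, adjusted p = 0.00326), and FADS1, a desaturase (-1.05 ± 0.22, 0.0159). In SOX10+ against STMN2+ cells 2 of the 7 were lower, near the 28.4% of all genes called lower, led by SCD, a stearoyl-CoA desaturase (-1.55 ± 0.21, edgeR adjusted p = 0.000473).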
